A study of Mus musculus with 6 samples.

Results

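The loci described here are the genes that the GENCODE annotation of the mouse mm9 genome (NCBIM37) classes as miRNA on chromosomes 1 to 19, each with 2 kb of sequence on either side. There are 1468 of them among 34653 annotated genes on these chromosomes. The rule that selects them uses the annotation and no read count. Of these loci, 733 lie within the body of a protein-coding gene and 735 outside any such body. The windows of 315 loci overlap those of another, so that the members form 1219 separate stretches of genome. Only 482 carry a miRNA symbol, and the other 986 carry the name of a sequencing clone. A RefSeq miRNA was matched to 465 loci, 360 by name and 105 because the annotated sequence held the RefSeq hairpin letter for letter.

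The data are chromatin immunoprecipitation sequencing (ChIP-Seq) reads for histone H4 acetylated at lysine 5 (H4K5ac) from the hippocampus of C57/BL6 mice aged 6 months. Fear-conditioned mice (FC) were given foot-shocks while exploring a chamber, in training sessions on consecutive days, and were killed shortly after their memory was tested, and control mice (CON) explored the chamber without shock. In each group 1 library was made from H4K5ac chromatin, 1 from a mock precipitation with immunoglobulin G (IgG) and 1 from input chromatin, which gives 6 libraries in 2 groups. With 1 library per group and antibody, the spread between animals is unknown and no p-value is given. The 95% intervals are exact (Clopper-Pearson) and cover counting error alone. Whole hippocampus mixes neurons, glia and vascular cells, so a mark in few cells and a weak mark in many cells cannot be told apart.

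MicroRNAs are short RNAs cut from hairpins in longer transcripts, and a loaded miRNA directs the silencing complex to messenger RNAs that pair with its seed, bases 2 to 8 of the mature strand. Many miRNAs are processed from introns of protein-coding hosts, and others come from transcripts of their own whose start may lie far from the hairpin. H4K5ac is a mark of open, transcribed chromatin that occurs at promoters and along gene bodies. A read at a hairpin therefore reports the chromatin of the transcription unit, not the amount of mature miRNA.

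The mature sequences of the families on which the results turn are given with the seed in capitals, 5′ to 3′, as listed by RefSeq (GRCm38.p6). The let-7 family, regulators of developmental timing, is shown because its members share a seed and their loci had high H4K5ac.
let-7a-5p: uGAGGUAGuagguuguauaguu
let-7b-5p: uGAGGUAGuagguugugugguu
let-7c-5p: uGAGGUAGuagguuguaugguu
let-7d-5p: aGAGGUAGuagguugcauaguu
let-7g-5p: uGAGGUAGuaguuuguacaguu
let-7i-5p: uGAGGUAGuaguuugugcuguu
The Hox cluster miRNAs of the miR-10 and miR-196 families, which lie among the Hox genes that pattern the body axis, are shown because all of their loci lay below input.
miR-10a-5p: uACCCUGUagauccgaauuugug
miR-10b-5p: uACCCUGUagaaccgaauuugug
miR-196a-5p: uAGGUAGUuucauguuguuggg
miR-196b-5p: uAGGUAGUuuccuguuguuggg
The last set is shown for the individual loci described: miR-132 and miR-212, neighbours with the same seed, miR-128, which is encoded at a pair of loci, miR-125b, whose Mir125b-2 locus ranked among the highest, and miR-134, from the Dlk1-Dio3 cluster.
miR-132-3p: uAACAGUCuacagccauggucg
miR-212-3p: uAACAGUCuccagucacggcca
miR-128-3p: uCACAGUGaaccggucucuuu
miR-125b-5p: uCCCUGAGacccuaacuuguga
miR-134-5p: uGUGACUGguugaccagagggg

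The libraries held 14549689 to 45673239 mapped reads, of which 14023183 to 44394551 lay on chromosomes 1 to 19. A stretch of 4 kb was expected to hold 23.4 reads in the shallowest library, FC IgG, and 74.2 in the deepest, FC input. The miRNA windows took 0.196% to 0.271% of the reads of a library. Read density is given as RPKM, scaled by the length of the window and by the reads of the library on these chromosomes, with a genome mean of 0.418. As a check of the tissue, brain genes had a median log2 ratio of H4K5ac to input over the gene body of 0.47 in FC and 0.53 in CON for 11 genes, of which 3 in FC and 4 in CON reached 1.5-fold, and the lowest in FC was at -0.33. Genes of other tissues had medians of -0.72 in FC and -0.31 in CON over 12 genes. Of these, 8 in FC and 3 in CON were lower by 1.5-fold and 1 in each group was higher. Of stretches of 4 kb inside protein-coding genes, 30.2% in FC and 37.5% in CON were higher, and 13.9% and 13.3% lower. The share of brain genes at 1.5-fold was thus not above that of these stretches. The brain genes were read over whole bodies, so the shares come from windows of unlike length. By the median, brain genes lay above these stretches, which had 0.27 in FC and 0.38 in CON.

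The input libraries of the 2 groups differed by base composition, which touches every ratio to input. The log2 ratio of FC to CON input rose with the GC content of the window, with a Spearman rank correlation of 0.79 over 1396 loci and 0.81 over the tiles of 4 kb that cover the same chromosomes. This is a description without a p-value, since loci share libraries and base composition. In windows of 36 to 40% GC the median was -0.40, and in windows of 52 to 56% GC it was 0.62. The ratio of the H4K5ac libraries moved less, from -0.039 to 0.14 in the same bands. The part of this difference in any locus value was not tested, so ratios are also given less the median of tiles of the same GC percent, called GC-corrected here. A GC-corrected value of 0 is the level of tiles of like GC content, not of input. All tiles had an uncorrected median of -0.19 in each group. A change of sign after correction is thus a change of place against those tiles.

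**Figure D1:**
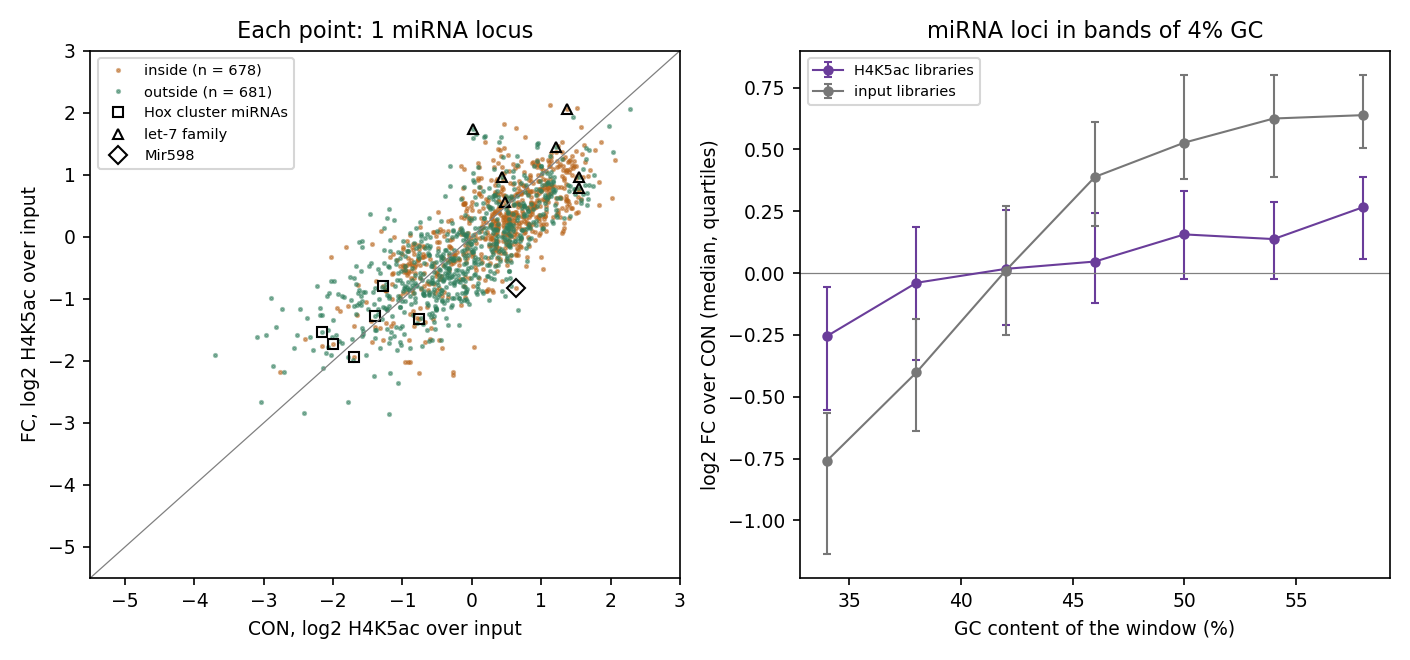
Left: log2 ratio of H4K5ac to input in CON (x axis) and FC (y axis) for 1359 miRNA loci, 1 point per locus inside (orange) or outside (green) protein-coding genes; the line marks equal values, squares mark the Hox cluster miRNAs, triangles the let-7 family and the diamond Mir598. Right: log2 ratio of FC to CON (y axis) by GC content of the window (x axis, %) for the H4K5ac and the input libraries, as medians with quartiles over loci; the input ratio climbs from -0.76 in the lowest band to 0.64 in the highest, the H4K5ac ratio from -0.25 to 0.27.

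The first question was how much H4K5ac the miRNA loci carried, inside and outside protein-coding genes. Loci inside hosts lay above input and loci outside lay below. Of the 1468 loci, 1396 had at least 20 reads in both input libraries; 41 of the 72 without were copies within the gene Sfmbt2. Inside, the median log2 ratio of H4K5ac to input was 0.23 in FC and 0.43 in CON over 687 loci. With overlapping windows merged, the inside median was 0.32 in FC and 0.53 in CON. Outside, it was -0.37 in FC and -0.22 in CON over 709 loci. The tiles gave 0.27 and 0.38 inside protein-coding genes, close to the miRNA loci inside hosts. Tiles outside gave -0.52 and -0.69, below the miRNA loci outside in either group. After GC correction the loci inside were at 0.29 and 0.27, below tiles inside at 0.43 and 0.47. These loci include 78 overlapping copies within Sfmbt2, a single stretch with GC-corrected medians of -0.22 and -0.29. The merged medians above are not GC-corrected. With GC correction the loci outside were at -0.25 and -0.26, against -0.28 and -0.31 for tiles outside. The distance of miRNA loci from tiles outside genes was thus smaller once windows of like GC content were compared. Against IgG in place of input, the medians inside were 0.62 and 0.51, and outside -0.035 and -0.14.

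Counts of loci showed how far these medians reached. A locus was counted as higher or lower than input when the ratio reached 1.5-fold. Of all 1396 loci, 315 were higher in FC and 415 in CON, against 16.8% and 21.4% of all tiles, and 395 and 375 were lower, against 32.8% and 36.9% of tiles. Inside, 203 loci were higher in FC and 276 in CON, against 30.2% and 37.5% of tiles inside. Those higher in both groups were 154, which is 22.4% of loci against 20.3% of tiles inside. Inside, 102 loci were lower in FC, 124 in CON and 69 in both, against 13.9%, 13.3% and 8.2% of tiles inside. Of these lower loci, 35 in FC, 67 in CON and 28 in both were copies within Sfmbt2. These copies form a single stretch of overlapping windows that share reads. That stretch held 78 of the 687 loci inside, and none of them was higher than input. With the Sfmbt2 copies counted, the shares of higher loci inside hosts were near the background of gene bodies. The shares of lower loci rested in part on that stretch, most of all in CON.

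Outside, 112 loci were higher in FC and 139 in CON, against 6.53% and 8.33% of tiles outside. Those higher in both groups were 77, which is 10.9% of loci against 3.56% of tiles outside. Lower loci were more frequent outside than inside, with 293 in FC, 251 in CON and 190 in both. The last is 26.8% of loci against 37.4% of tiles outside, which were lower at 46.7% in FC and 54.7% in CON. Outside protein-coding genes, miRNA loci were therefore higher than input more often, and lower less often, than tiles, with no correction for GC content. The 2 sets are not fully alike, since tiles outside overlap no protein-coding body and so hold no coding transcription start site. The window of a locus outside can reach into such a body. Without loci whose window held a coding start site, 55 of 664, or 8.28%, were higher in both groups and 28.3% lower in both.

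**Figure D2:**
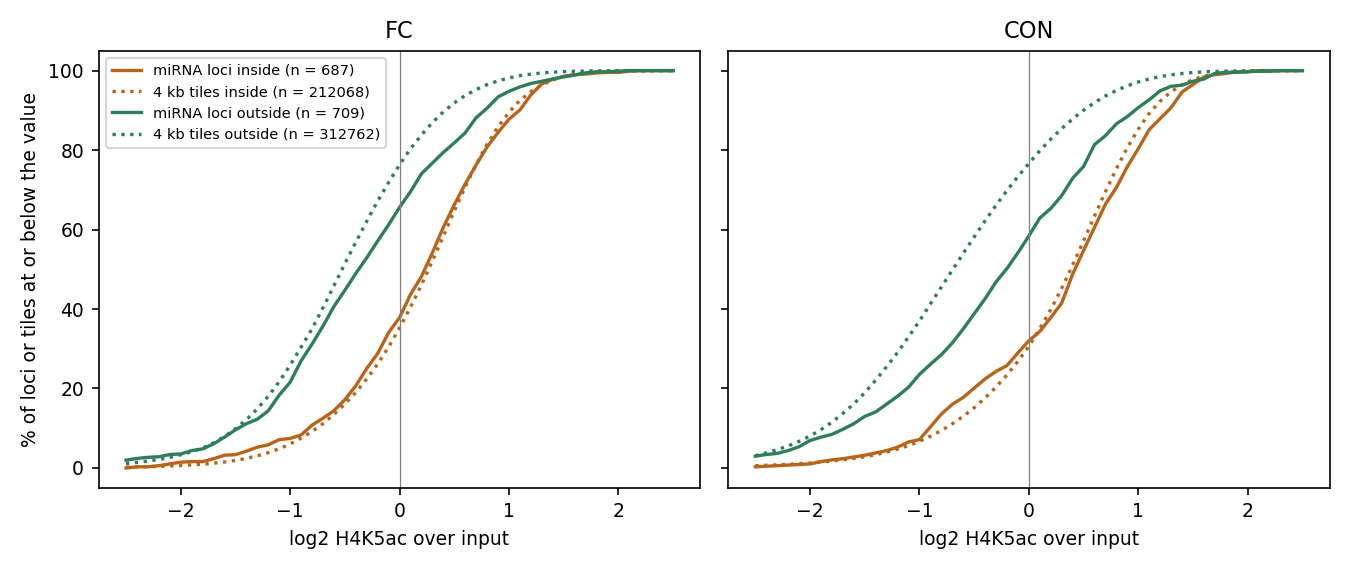
Share of loci or tiles (y axis, %) at or below each log2 ratio of H4K5ac to input (x axis) in FC (left) and CON (right), for miRNA loci (solid) and tiles of 4 kb (dotted) inside and outside protein-coding genes. The curves of loci and tiles inside lie close together with medians of 0.23 and 0.27 in FC, while the curve of loci outside lies to the right of that of tiles outside over most of the range, though not in the lowest tail in FC, where 1.97% of loci and 1.12% of tiles lie at or below -2.5.

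The class of loci outside genes was not uniform. Those with a miRNA symbol had medians of -0.15 in FC and 0.25 in CON over 197 loci, and 39 of them, or 19.8%, were higher in both groups, against 3.56% of tiles outside. Those with a clone name had medians of -0.48 and -0.41 over 512 loci, with 38, or 7.42%, higher in both. After GC correction the medians were -0.14 and -0.12 for loci with a miRNA symbol, so that the CON value turned sign, and -0.29 and -0.27 for those with a clone name. The 40 clone-named loci that held a RefSeq hairpin had medians of 0.30 and 0.36. Over all 462 sequence-matched loci with enough input, 119 were higher in both groups, or 25.8%, against 11.1% of all tiles. The median GC content of the matched windows was 48.0%, and that of all tiles 41.6%. After GC correction their medians were 0.18 and 0.17.

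Loci were next divided by position relative to coding transcription start sites (TSS). A coding TSS lay within the window of 151 loci, 106 of them inside a host. Inside with a TSS, the medians were 0.49 in FC and 0.82 in CON, and 48 of 106 loci, or 45.3%, were higher in both groups, against 30.9% of tiles inside with a coding TSS. After GC correction these loci lay below those tiles, with medians of 0.30 and 0.14 against 0.40 and 0.37. The 581 loci inside without a TSS had medians of 0.20 and 0.36. After GC correction these became 0.28 and 0.30, so that loci with a TSS were little higher in FC and lower in CON. Tiles with a coding TSS had a median GC content of 47.5%, and those without 41.4%. The correction may therefore also take out H4K5ac that goes with a TSS, which was not tested. Outside with a TSS, the medians were 0.60 and 0.89, and 22 of 45 loci, or 48.9%, were higher in both, against 31.1% of all tiles with a coding TSS. Without a TSS, loci outside fell to medians of -0.42 and -0.29 over 664 loci. Outside loci more than 100 kb from the nearest coding TSS had medians of -0.59 and -0.61 over 239 loci. GC content was 40.3% in that band and 48.4% in the band nearest to a TSS, where GC-corrected medians were 0.37 and 0.33. Inside hosts, the medians were 0.21 and 0.45 on the host strand (489 loci) and 0.32 and 0.38 on the opposite strand (198 loci). The 129 loci that overlapped a host exon had medians of 0.32 and 0.66, and the 558 intronic loci 0.22 and 0.37. After GC correction this order turned, with 0.22 and 0.090 for the exonic and 0.31 and 0.30 for the intronic loci, whose windows had a median GC content of 50.8% and 42.8%.

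Loci inside a host, on either strand, were compared with the rest of the same host body. An intronic hairpin on the host strand can share its transcript, but 200 of the 733 loci inside lie on the opposite strand. Where a host held several loci, the rest of its body included the windows of the others. Over 658 loci in 530 hosts, the median difference of the locus from the rest of its host was 0.0046 in FC and -0.060 in CON on the log2 scale. Locus and host values had a rank correlation of 0.78 in FC and 0.77 in CON, given as a description, since both are read from the same libraries. Where a coding TSS lay in the window, the 86 loci exceeded the rest of the host by medians of 0.26 in either group.

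Along the loci inside hosts, reads of every library, H4K5ac and controls alike, were fewer at the hairpin than beside it. There, the FC H4K5ac library averaged 1.44 times the genome mean within 500 bp of the 5′ end of the miRNA gene, and 1.58 times at 3 to 5 kb from it. The CON H4K5ac library gave 1.40 and 1.57. Input gave 1.13 and 1.22 in FC and 0.94 and 1.03 in CON. In the 100 bp just after the 5′ end, reads were at their lowest in all 6 libraries, with 1.04 and 0.96 for H4K5ac and 0.85 and 0.62 for input in FC and CON. Loci matched to a RefSeq miRNA showed a shallower dip inside hosts, where the same bin held 1.63 and 1.42 for H4K5ac and 1.27 and 0.88 for input. Outside, over 640 windows, H4K5ac was 0.92 within 500 bp and 0.95 at 3 to 5 kb in FC, and 0.87 and 0.94 in CON, and input was 1.00 and 1.02 in FC and 0.89 and 0.95 in CON. The 144 outside windows matched to a RefSeq miRNA went the other way, with H4K5ac of 1.56 near the 5′ end and 1.35 in the flanks in FC, and 1.41 and 1.32 in CON. Their input was 1.27 and 1.23 in FC, and 1.02 and 1.05 in CON. IgG was 0.99 and 0.91 in FC, and 0.87 and 0.98 in CON. H4K5ac was thus higher near these hairpins than in their flanks in both groups, and in FC so were input and IgG. How well reads of this length could be placed on annotated hairpins was not tested.

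**Figure D3:**
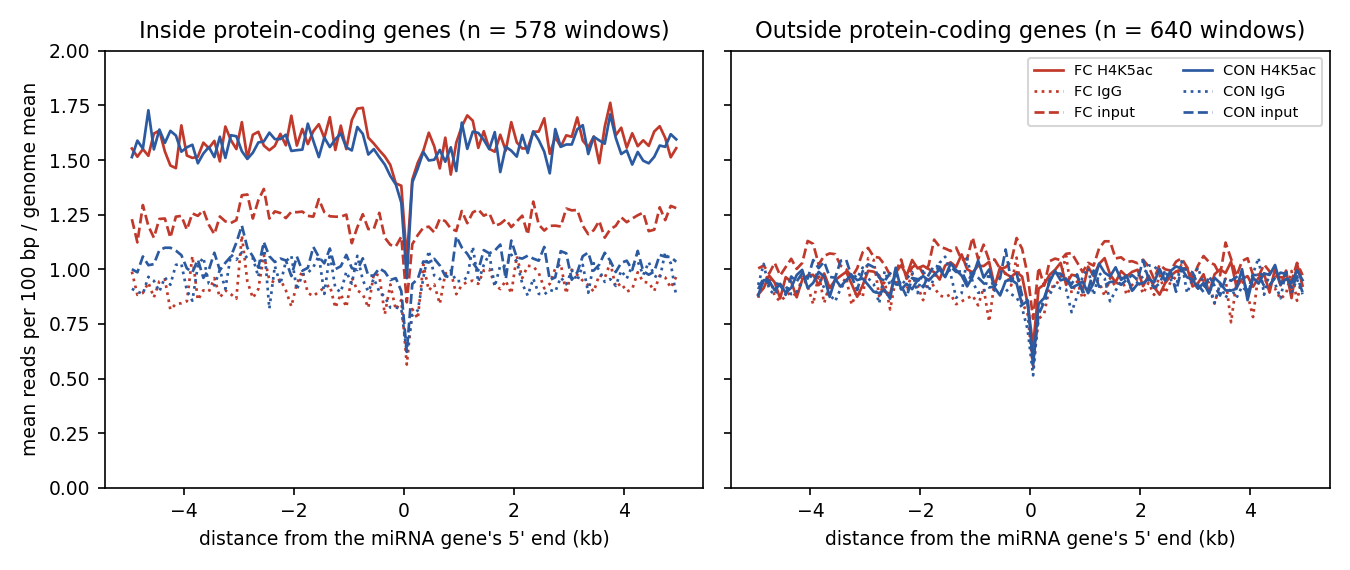
Mean reads per 100 bp divided by the genome mean of the library (y axis) against distance from the 5′ end of the miRNA gene in kb (x axis, in the direction of the miRNA), for 578 windows inside and 640 outside protein-coding genes; red lines are FC, blue lines CON, solid H4K5ac, dashed input and dotted IgG. The H4K5ac lines run near 1.5 inside and near 1 outside, and every library dips at the hairpin.

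The second question was which known miRNAs carried the mark. Lists of miRNAs by tissue were compared with input in the same way, with 16.5% of all miRNA loci and 11.1% of all tiles higher in both groups. List members carry miRNA symbols, and of all loci with such a symbol 23.6% inside hosts and 19.8% outside were higher in both. Of sequence-matched loci 25.8% were, so these shares are the nearer background. By the median ratio to input, the let-7 family and widely expressed miRNAs stood highest, brain miRNAs came next, and the Hox cluster miRNAs stood lowest. Against IgG the order at the top changed in FC, where widely expressed miRNAs had 1.38, epithelial, gut, islet and skin miRNAs 1.28, the let-7 family 1.26 and brain miRNAs 0.93. In CON the same lists had 1.24, 0.53, 1.14 and 1.12 against IgG, and the Hox cluster miRNAs were lowest against IgG in both groups. Of 46 brain-enriched or neuronal loci, 16 were higher in FC, 29 in CON and 14 in both, with medians of 0.44 and 0.77. After GC correction the brain medians were 0.27 and 0.31. Of 27 widely expressed loci, 18 were higher in FC, 22 in CON and 16 in both, with medians of 0.72 and 0.88, GC-corrected 0.59 and 0.65, and none was lower. Of 7 let-7 loci, 6 were higher in FC, 4 in CON and 4 in both, with medians of 0.97 and 1.21, GC-corrected 1.3 and 0.68. The 47 brain, 29 widely expressed and 7 let-7 loci found form 40, 21 and 5 separate windows, and loci in 1 window share reads. Lists were matched by symbol, so 5 clone-named loci that hold hairpins of listed miRNAs stand outside these counts. Their ratios were 0.73 and 0.36 for CT009696.1 (Mirlet7a-2), 0.68 and 0.81 for CT009696.2 (Mir100), 1.61 and 0.18 for AC154660.1 (Mir16-1), -0.28 and 0.31 for AC110909.1 (Mir9-3), and 0.69 and 0.66 for CT025619.1 (Mir125b-1).

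**Figure D4:**
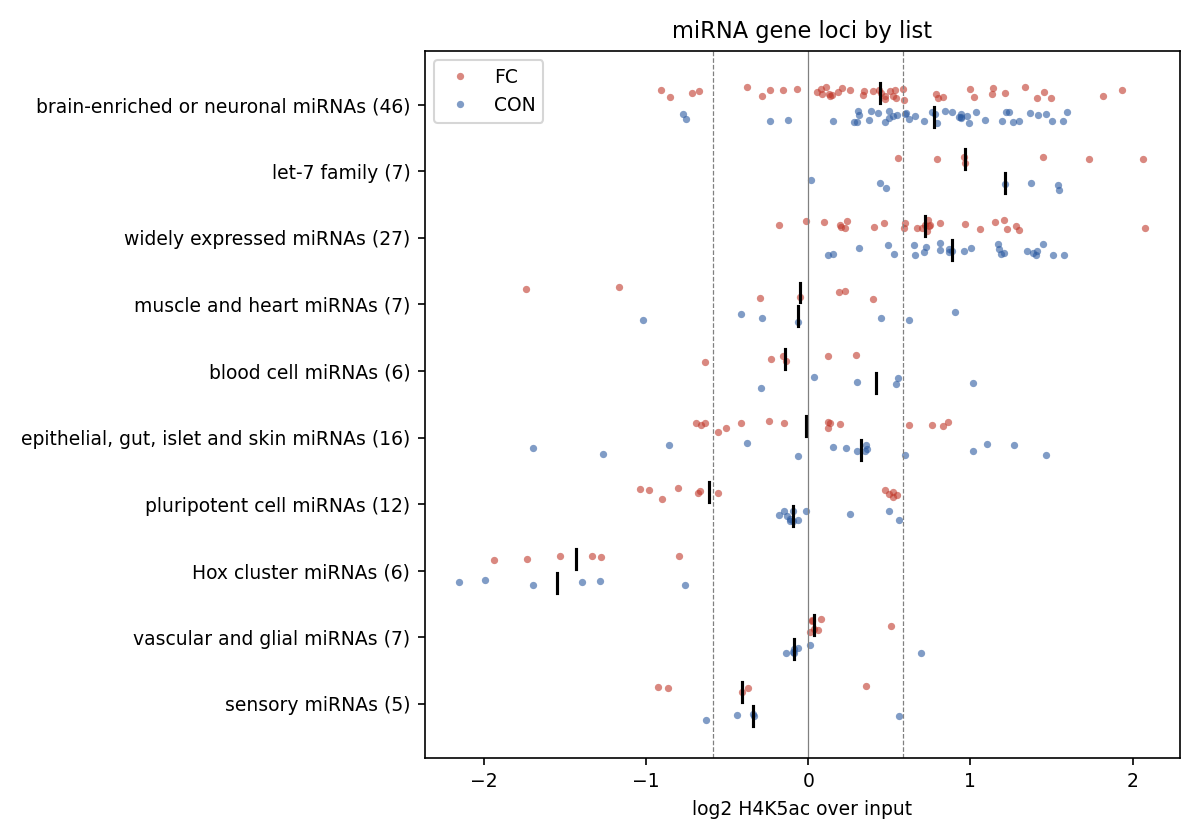
Log2 ratio of H4K5ac to input (x axis) for each miRNA locus of a list (y axis, number of loci in brackets) in FC (red) and CON (blue); black bars are medians, dashed lines mark 1.5-fold and vertical position within a row is jitter. All 6 Hox cluster loci lie left of the lower line in either group, and the let-7 loci lie right of 0.

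Among the let-7 loci, Mirlet7c-1 and its neighbour Mir99a, a miRNA of the miR-100 family, had the highest ratios in FC. They lie on chromosome 16 at 77599902-77599995 and 77599181-77599245, opposite in strand to the predicted gene Gm11146. The Mirlet7c-1 window held 0.830 RPKM of H4K5ac, 0.540 of IgG and 0.198 of input in FC, and 0.813, 0.368 and 0.314 in CON. The H4K5ac values were alike and above both controls in each group. The log2 ratio to input stood at 2.07 (1.51 to 2.66) in FC and 1.37 (0.86 to 1.91) in CON. This window is AT-rich, with 33.5% GC, and its input ratio of FC to CON was -0.66. The second copy of the same mature sequence, Mirlet7c-2 beside Mirlet7b on chromosome 15, lies in a GC-rich window of 55.5%. It held 1.53 RPKM of H4K5ac, 0.226 of IgG and 0.880 of input in FC, and 1.24, 0.537 and 0.428 in CON. Its ratio stood at 0.79 (0.48 to 1.11) in FC and 1.54 (1.11 to 1.99) in CON. The intervals of the copies were apart in FC and overlapped in CON. Mirlet7a-1 had a ratio of 1.73 (1.15 to 2.35) in FC and 0.016 (-0.45 to 0.48) in CON. Its H4K5ac was 0.641 and 0.570 RPKM, and its input 0.193 and 0.564. The input values, and not the H4K5ac values, were far apart between groups at this locus.

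Mir125b-2, on chromosome 16 at 77646518-77646588, encodes a miRNA abundant in neurons and lies downstream of Mirlet7c-1. It held 1.06 RPKM of H4K5ac, 0.455 of IgG and 0.277 of input in FC, and 1.07, 0.262 and 0.388 in CON. H4K5ac exceeded both controls in each group, with log2 ratios to input of 1.93 (1.46 to 2.43) and 1.46 (1.01 to 1.94). The other copy of miR-125b, annotated as CT025619.1 inside the host 2610203C20Rik on chromosome 9, had ratios of 0.69 and 0.66.

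Mir132 and Mir212, which respond to neuronal activity through the factor CREB, lie on chromosome 11 at 74987167-74987267 and 74986890-74986980, within the noncoding gene 1700016P03Rik. Their windows overlap and share reads. Mir212 held 0.712 RPKM of H4K5ac, 0.209 of IgG and 0.490 of input in FC, and 0.870, 0.261 and 0.293 in CON. H4K5ac was above both controls in each group. The log2 ratios to input were 0.54 (0.10 to 0.98) in FC and 1.57 (1.05 to 2.12) in CON for Mir212, and 0.51 and 1.19 for Mir132. The direct ratio of FC to CON H4K5ac was -0.29 (-0.70 to 0.11) for Mir212 and -0.18 (-0.60 to 0.23) for Mir132, intervals that include no difference.

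The pair of loci for miR-128, a neuronal miRNA, lay in introns of R3hdm1 (Mir128-1, chromosome 1) and Arpp21 (Mir128-2, chromosome 9), each on the strand of its host. Mir128-2 held 1.12 RPKM of H4K5ac, 0.402 of IgG and 0.745 of input in FC, and 1.33, 0.462 and 0.515 in CON. Mir128-1 held 0.563, 0.437 and 0.160 in FC, and 0.704, 0.508 and 0.508 in CON. H4K5ac was higher at Mir128-2 in either group. The ratio to input kept this order in CON, with 1.37 for Mir128-2 and 0.47 for Mir128-1, and turned it in FC, with 0.59 and 1.82. The Mir128-1 window has 34.2% GC, and its FC to CON ratio of input was -1.67.

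Other brain loci spanned a wide range. Mir338, in an intron of the kinase gene Aatk, had 1.33 (0.97 to 1.71) in FC and 1.59 (1.13 to 2.08) in CON. Mir346, inside the glutamate receptor gene Grid1, had 1.14 and 1.51. Mir488, inside Astn1, had 1.14 and 1.26. Mir9-2, a miRNA of neural progenitors and neurons, had 0.83 and 0.78, while Mir137 had 0.13 and 0.31 with intervals that include 0. At the bottom, Mir135a-2 had -0.15 and -0.76, and Mir218-1, inside the axon guidance gene Slit2, had -0.38 and -0.77. After GC correction Mir135a-2 was at 0.14 and -0.41 and Mir218-1 at -0.088 and 0.21, so that 1 value of each lay above tiles of like GC content. Mir34a, a target of p53, had -0.91 in FC and 0.15 in CON.

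Of the widely expressed miRNAs, Mir99a was highest in FC, at 2.08, and had 1.51 in CON, where the highest locus of the list had 1.58. Mir27b, from a cluster with Mir23b, had 1.28 (0.96 to 1.61) in FC and 1.35 (0.98 to 1.73) in CON. Mir186 and Mir107 were lowest, with -0.01 and 0.12 for Mir186 and -0.18 and 0.65 for Mir107. Mir26a-1, inside Ctdspl, held 1.61 RPKM of H4K5ac in FC and 1.34 in CON against 0.699 and 0.514 of input.

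All 6 Hox cluster miRNAs were lower than input by 1.5-fold in both groups, against 18.6% of all miRNA loci and 25.1% of all tiles. The median ratio was -1.43 in FC and -1.55 in CON, and after GC correction -1.63 and -2.16. Mir10b, inside Hoxd4 on chromosome 2 at 74564127-74564194, held 0.175 RPKM of H4K5ac, 0.368 of IgG and 0.670 of input in FC, and 0.133, 0.201 and 0.431 in CON. H4K5ac was the lowest of the 3 libraries in each group, and the ratios to input were -1.94 (-2.66 to -1.27) and -1.70 (-2.52 to -0.93). Mir10a, inside Hoxb4 on chromosome 11, had -1.74 (-2.53 to -1.01) and -1.99 (-2.86 to -1.21). Mir196a-1, on chromosome 11, had -1.53 and -2.15, and Mir196a-2, on chromosome 15, had -1.28 and -1.40. Mir196b, in an exon of Hoxa9, had -0.80 and -1.28, and Mir615, inside Hoxc5, had -1.33 and -0.76. These windows held 15 to 34 H4K5ac reads each, and against IgG the medians were -0.68 and -1.17. A coding TSS lay in the window of Mir10a, Mir10b, Mir196b and Mir615, in contrast to the medians above input of loci with a TSS.

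Lists of miRNAs of other tissues had medians to either side of input. In FC and CON these were -0.049 and -0.060 for muscle and heart, -0.15 and 0.42 for blood cell, -0.014 and 0.32 for epithelial, gut, islet and skin, -0.61 and -0.095 for pluripotent cell, 0.034 and -0.089 for vascular and glial, and -0.41 and -0.34 for sensory miRNAs. After GC correction the CON medians turned sign for blood cell (-0.12), epithelial, gut, islet and skin (-0.11) and pluripotent cell miRNAs (0.17). Against IgG the medians were 0.38 and 0.54 for muscle and heart, 0.64 and 0.36 for blood cell, and 1.28 and 0.53 for epithelial, gut, islet and skin miRNAs. They were 0.047 and -0.10 for pluripotent cell, 0.21 and -0.29 for vascular and glial, and 0.32 and -0.17 for sensory miRNAs. The place of these lists thus depended on the control library. None of 7 muscle and heart loci was higher in both groups. Mir1a-1, the muscle miRNA of chromosome 2, held 0.206 RPKM of H4K5ac and 0.691 of input in FC, and 0.244 and 0.494 in CON, ratios of -1.74 (-2.41 to -1.12) and -1.02 (-1.65 to -0.41). Mir208b, inside the heart myosin gene Myh7, had 0.40 and 0.62, the latter -0.044 after GC correction. None of 6 blood cell loci and none of 12 pluripotent cell loci was higher in both groups, and the latter form only 2 separate windows. Of 16 epithelial, gut, islet and skin loci, 4 were higher in both, namely Mir141 and Mir200c on chromosome 6 and Mir192 and Mir194-2 on chromosome 19. The 16 loci form 11 separate windows, and loci in 1 window share reads. Mir141 had 0.77 and 1.47, and Mir31, at the other end of that list, -0.66 and -1.70. None of 5 sensory loci and none of 7 vascular and glial loci was higher in both, and the latter form only 2 separate windows. Apart from Mir126, all members of the vascular and glial list belong to the cluster from Mir17 to Mir92-1. The median of that list therefore rests on 1 stretch that shares reads, and it does not describe glial loci at large. Mir126, the endothelial miRNA, had 0.51 and 0.69, the latter -0.23 after GC correction.

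Among loci with at least 50 reads in each input and H4K5ac library, the highest mean ratio belonged to AL928593.1, which holds the RefSeq hairpin Mir3089. It lies on chromosome 2 at 30576730-30576813, outside any protein-coding gene. It held 2.50 RPKM of H4K5ac, 0.419 of IgG and 0.601 of input in FC, and 2.08, 0.215 and 0.429 in CON. H4K5ac stood far above both controls in each group, with ratios of 2.05 (1.74 to 2.38) and 2.27 (1.87 to 2.70). Mir688 followed with 1.78 and 1.98, and a coding TSS lay 782 bp away. AC090648.1 had 1.37 and 2.03, Mir125b-2 the values above, and AL645963.1, inside the protein kinase C gene Prkca, 1.53 and 1.86. This order is by the uncorrected ratio. After GC correction Mir125b-2 was the highest of these 5 in both groups, at 2.27 in FC and 2.4 in CON. AL928593.1 was then at 1.6 and 1.36. With 1 miRNA named per merged window and input under 3 times the genome mean, the lowest were Mir666 (-0.91 and -0.84), Mir382 (-0.94 and -0.68), Mir1963 inside the ryanodine receptor gene Ryr1 (-0.97 and -0.09), AC157995.1 (-0.63 and -0.42) and AL731851.1 (-0.90 and -0.14). Against IgG, Mir666 was at 0.013 and 0.25, Mir1963 at -0.54 and 0.84, and AL731851.1 at 0.32 and -0.30, so that their place below the control depended on the control library. The minimum of 50 H4K5ac reads keeps loci such as the Hox miRNAs out of this ranking. Input itself was most abundant at AC113316.1, inside Cdk8, with 1.65 RPKM in FC and 1.13 in CON, the only locus above 3 times the genome mean. There H4K5ac gave -1.43 and -0.83. The next by input were AC140318.1 (-1.99 and -1.71), Mir140 (-0.55 and 0.36), Mir1962 and Mir26b.

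Clusters of miRNA genes were read as whole stretches, since their windows overlap. The imprinted Dlk1-Dio3 region of chromosome 12 encodes many neuronal miRNAs, among them miR-134, a regulator of dendritic spines. Its 57 miRNA genes, from 110782751 to 111516339, form 12 separate windows. Summed over these, H4K5ac stood at 1.06 times the genome mean in FC and 0.926 in CON, IgG at 1.02 and 0.952, and input at 1.65 and 1.11. The ratio to input stood at -0.64 (-0.74 to -0.54) in FC and -0.25 (-0.37 to -0.14) in CON, while the ratio to IgG was 0.059 and -0.039. None of the 57 loci was higher than input, 32 were lower in FC, 8 in CON and 6 in both. These are 56.1%, 14.0% and 10.5% of the loci, against 32.8%, 36.9% and 25.1% of all tiles, so that the share exceeded the background in FC only. After GC correction the medians over loci were -0.72 in FC and -0.76 in CON, against -0.66 and -0.26 before it. Mir134 had -0.70 (-1.17 to -0.24) in FC and -0.72 (-1.26 to -0.20) in CON.

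**Figure D5:**
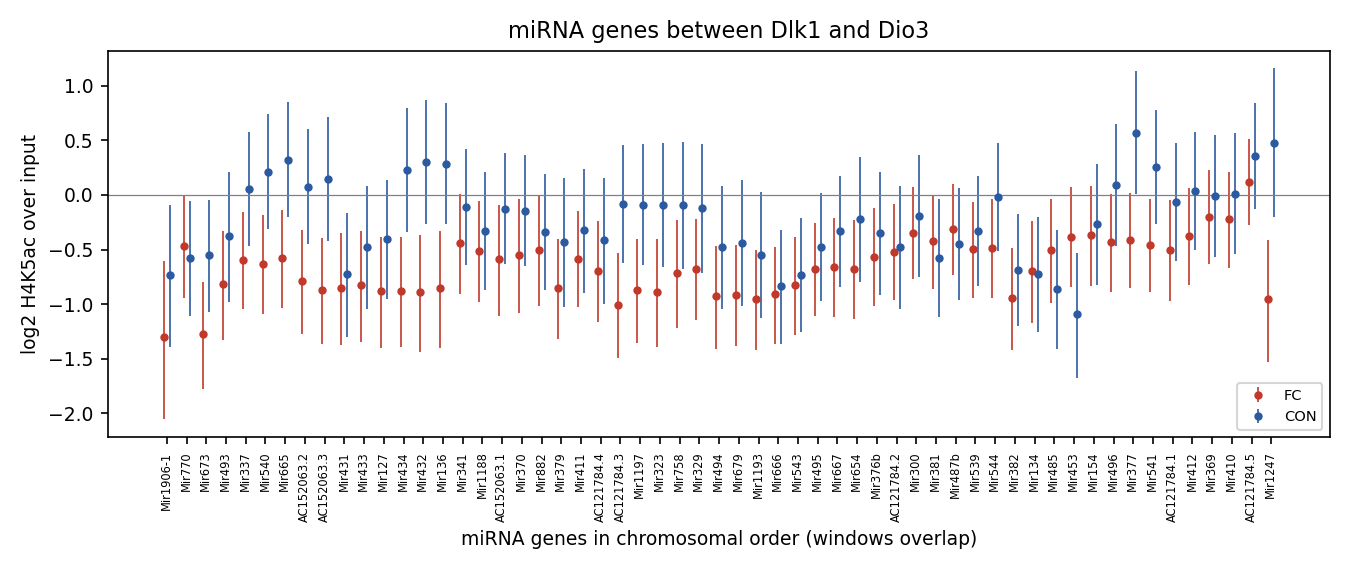
Log2 ratio of H4K5ac to input (y axis) for the 57 miRNA genes between Dlk1 and Dio3 in chromosomal order (x axis, gene symbols), in FC (red) and CON (blue), with exact 95% intervals of counting error. Most FC points lie below 0 with a median of -0.66, and CON points scatter around a median of -0.26; neighbouring points share reads.

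The 119 miRNA genes within an intron of Sfmbt2 on chromosome 2 (10386914 to 10439906) are a series of repeated copies, and how well reads could be placed among them was not tested. They form 1 stretch of 57.0 kb. H4K5ac stood there at 0.396 and 0.378 times the genome mean, and input at 0.562 and 0.671 in FC and CON. The ratios were -0.51 (-0.71 to -0.30) and -0.83 (-1.03 to -0.63). GC-corrected medians over loci were -0.22 and -0.29, against -0.55 and -0.87 before correction. Among smaller runs, the embryonic stem cell cluster from Mir290 to Mir295 on chromosome 7 had -0.71 (-1.15 to -0.28) in FC and 0.22 (-0.25 to 0.68) in CON. The cluster from Mir17 to Mir92-1 on chromosome 14 was at input, with 0.048 (-0.44 to 0.53) and -0.061 (-0.59 to 0.47). The miR-344 family on chromosome 7 lay above it: the 7 loci that share the seed GUCAGGC had medians of 0.68 in FC and 0.36 in CON, from -0.049 to 1.62 and from 0.015 to 0.92.

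Copies of 1 mature sequence at separate loci were compared in 27 sets, 24 of them pairs. Only the copies of miR-680 had intervals apart in both groups. Mir680-1, on chromosome 6, had -1.91 (-2.81 to -1.10) and -2.04 (-2.93 to -1.23), and Mir680-3, on chromosome 12, had -0.43 (-0.91 to 0.04) and 0.13 (-0.41 to 0.67). The other sets were apart in at most 1 group.

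The third question was whether H4K5ac at these loci differed between FC and CON. In read density, scaled to the reads of each library, the 2 groups were much alike. A change of H4K5ac over the whole genome would be removed by this scaling, and the median over all tiles was -0.012. Whether the groups had the same amount of H4K5ac can therefore not be read from these ratios. Over 1369 loci with at least 20 H4K5ac reads in the pair of libraries, the median log2 ratio of FC to CON was 0.047, with 0.042 inside and 0.054 outside. By 1.5-fold, 62 loci were higher in FC, which is 4.53% against 6.36% of all tiles, and 78 were lower, which is 5.70% against 7.82% of tiles. The shares of miRNA loci thus did not exceed the background, which holds for the H4K5ac libraries alone. Tiles held fewer H4K5ac reads, with medians of 41 in FC and 48 in CON against 58 and 62.5 at miRNA loci. Ratios from fewer reads scatter more, and the part of this in the shares was not tested. With the input ratio subtracted, 168 loci were higher and 300 lower, or 12.3% and 21.9% against 19.2% and 15.6% of tiles. With the IgG ratio subtracted, 268 were higher and 178 lower, or 19.6% and 13.0% against 18.1% and 16.9% of tiles. With 1 kb on either side, 133 were higher and 99 lower, with no tiles of that size for comparison. Subtracting the input ratio also turned the median, to -0.16. Of these 140 loci, 123 had fewer than 50 reads in at least 1 H4K5ac library. Inside, 19 loci were higher and 39 lower of 683, against 3.13% and 5.3% of tiles inside. Of these lower loci, 17 were overlapping windows within Sfmbt2, a single stretch whose summed ratio of FC to CON was 0.067 (-0.17 to 0.30). Outside, 43 were higher and 39 lower of 686, against 8.63% and 10.1% of tiles outside. Outside loci with a miRNA symbol had 12 higher and 2 lower of 197, which is 6.09% and 1.02%, with a median FC to CON ratio of input of 0.48. Of the 12, Mir411, Mir300, Mir381, Mir487b and Mir453 lie in the Dlk1-Dio3 region, where neighbouring windows share reads. The ratios of H4K5ac to input in the groups had a rank correlation of 0.80 over 1396 loci, as a description.

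With at least 50 reads in each input and H4K5ac library, the locus highest in FC was AC107711.2, which holds Mir5131 in an exon of the phospholipase gene Ddhd1 on chromosome 14 at 46277636-46277728, 91 bp from a coding TSS. It held 1.2 RPKM of H4K5ac, 0.383 of IgG and 0.358 of input in FC, and 0.730, 0.384 and 0.471 in CON. H4K5ac was above both controls in each group, and the ratio of FC to CON H4K5ac was 0.72 (0.35 to 1.09). The input ratio went the other way, at -0.40. The ratio to input was 1.75 in FC and 0.63 in CON, and the CON value went to -0.16 after GC correction. Mir1947, inside Lmln, followed with 0.71 (0.22 to 1.2), Mir300, in the Dlk1-Dio3 region, with 0.69 (0.16 to 1.22), AL626775.1, inside Meaf6, with 0.68 (0.23 to 1.13), and AC155932.1, in an exon of Apba3, with 0.67 (0.19 to 1.17). The input ratio was 0.84 at Mir300, larger than that of H4K5ac, 0.60 (0.11 to 1.10) at AC155932.1, 0.23 at Mir1947 and 0.082 at AL626775.1.

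Only Mir598 was lower in FC by 1.5-fold at this depth. It lies in an intron of Xkr6 on chromosome 14 at 64346026-64346104. It held 0.429 RPKM of H4K5ac, 0.332 of IgG and 0.762 of input in FC, and 0.656, 0.401 and 0.423 in CON. H4K5ac was lower and input higher in FC. The ratio of FC to CON H4K5ac was -0.61 (-1.12 to -0.12), and the ratio to input stood at -0.83 (-1.31 to -0.37) in FC and 0.63 (0.15 to 1.13) in CON. After GC correction these became -0.87 and 0.10, and against IgG the FC value changed sign to 0.37, with 0.71 in CON.

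Among the listed miRNAs, few differed by 1.5-fold between groups, each with fewer than 50 reads in at least 1 input or H4K5ac library. The background for these counts is 6.36% of all tiles higher and 7.82% lower, and the lists are short. Of the 47 brain loci found none was higher in FC and 2 were lower. Mir873, inside Lingo2, fell from 101 H4K5ac reads in CON to 26 in FC, a ratio of -1.77 (-2.45 to -1.14) beside an input ratio of -0.53, in a window of 33.2% GC. The FC to CON ratio of Mir218-1 was -0.68 (-1.48 to 0.08), which includes no difference. Of the widely expressed loci 3 were lower in FC, Mir30c-2 at -0.81 (-1.29 to -0.36) and the neighbours Mir15b and Mir16-2 at -0.70 and -0.75, with input ratios of -1.56 and -1.52. Of the Hox loci Mir196a-1 was higher at 0.98 (0.01 to 2.00), from 15 reads in CON and 26 in FC, and Mir196b at 0.64 (-0.27 to 1.57). Of the other lists, the blood cell locus Mir142 was higher in FC at 0.65 (0.12 to 1.19), with an input ratio of 1.17, and the epithelial locus Mir31 at 0.65 (-0.16 to 1.47), with an input ratio of -0.39. Over the Dlk1-Dio3 windows the ratio was 0.19 (0.08 to 0.31), with an input ratio of 0.58.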

How the data were processed

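The authors sequenced the libraries on SOLiD, mapped reads to mm9 with Bioscope and deposited each mapped read as a BED record whose score is its mapping quality, between 4 and 100, with an aligned length of 25 to 50 bp. These score files were read as deposited, 1 record per read. Reads overlapping each window were counted here and scaled by the reads on chromosomes 1 to 19, and ratios of read densities carry exact 95% binomial intervals. Background came from 618077 tiles of 4 kb, wholly inside (220698) or wholly outside (364406) protein-coding bodies. Tiles that lay partly in such a body were in neither set and counted among all tiles only. GC correction subtracted the median of at least 200 tiles of the same whole GC percent. Loci needed 20 reads in each input library or, for FC over CON, 20 H4K5ac reads together. Repeat reads at 1 position were 11.5% to 17.9% of a library and were kept. The study's methods describe 3 hippocampal samples per group; whether the 1 library per group and antibody pools them is not stated in the labels.

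Groups came from the sample labels. Named loci were list members, with values for the highest and lowest 2 of each list and those on which results turn, the 5 highest and 5 lowest by the mean ratio to input and by FC over CON past 1.5-fold, and the 5 highest by input, with at least 50 reads in each input and H4K5ac library, input under 3 times the genome mean and 1 miRNA per merged window for the rankings other than input. Copies of 1 mature sequence, the miR-344 family and loci differing between groups within lists were named after their values were seen. Members and lists were chosen with earlier results of these data known. Of the 46 loci on the chromosome not named here, values entered the counts only. Chromosome X was left out of all comparisons. Alternatives are in the closing section. Calculations used Python 3.11.15, NumPy 2.4.6, pandas 2.3.3 and SciPy 1.17.1 and were tested on simulated reads with known ratios.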

Additional observations from a re-analysis of the deposited data

Results flagged for a closer look

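Named loci whose intervals lay on opposite sides of input in FC and CON are given here, with the classes, lists and clusters of loci whose medians did. The differences were not tested, since each group has 1 library. Bands of GC content or of distance to a TSS, and subsets made for other settings, were not searched. Of these, windows of 44 to 48% GC had medians of -0.11 and 0.28, and outside loci 5 to 10 kb from a coding TSS -0.11 and 0.28. Outside loci matched to a RefSeq miRNA had -0.0071 and 0.30. Mir598 had a log2 ratio of H4K5ac to input of -0.83 in FC and 0.63 in CON. The median over all miRNA loci was -0.044 in FC and 0.14 in CON, that of loci outside in a noncoding gene of the same strand -0.23 and 0.013, and that of loci outside with a miRNA symbol -0.15 and 0.25. Blood cell miRNAs had medians of -0.15 and 0.42, epithelial, gut, islet and skin miRNAs -0.014 and 0.32, and vascular and glial miRNAs 0.034 and -0.089. After GC correction the medians were 0.034 and 0.020 for all loci, -0.22 and -0.12 for loci in a noncoding gene, -0.14 and -0.12 for loci outside with a miRNA symbol, -0.30 and -0.12 for blood cell and -0.18 and -0.11 for epithelial, gut, islet and skin miRNAs, on 1 side of 0 in each case, and 0.23 and -0.12 for vascular and glial miRNAs. The run at Mir302b had medians of 0.52 and -0.11, and the run at Mir17 0.030 and -0.089; after GC correction these were 0.82 and 0.23, and 0.24 and -0.070.

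Chromosome X was in no comparison above. There 84 of 108 miRNA loci had enough input, and 12 of them, or 14.3%, had H4K5ac at least 1.5-fold over input in both groups, against 16.5% of the other miRNA loci and 11.1% of all tiles on chromosomes 1 to 19. IgG was as high over input at 2 loci in both groups. In FC alone, H4K5ac was higher at 19 loci and IgG at 24, with medians of -0.029 and 0.078; in CON, H4K5ac was higher at 19 and IgG at 7, with medians of -0.49 and 0.020.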

How the results depend on the processing

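No paired analysis was possible because each group and antibody has 1 library; for the same reason no library could be left out. Of 1550 values of 62 named loci under other settings, 1363 stayed within their counting interval, 163 moved out of it and 24 had an interval that excluded 0 and changed sign; values whose interval included 0 are not counted as sign changes here, although some also turned. The causes were not tested.

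With 1 kb either side, the loci higher in FC numbered 133. With 5 kb either side, the loci higher in FC numbered 28 and the loci lower in FC numbered 42. With the median of tiles set to 0, the inside median in FC was 0.42, the outside median in FC was -0.18, the inside median in CON was 0.62 and the outside median in CON was -0.024. With the GC correction, the outside median in FC was -0.25, the inside median in CON was 0.27 and the FC to CON median was 0.017. With overlapping windows merged, the inside median in FC was 0.32 and the inside median in CON was 0.53. With IgG in place of input, the inside median in FC was 0.62, the outside median in FC was -0.035, the loci higher than input in FC numbered 553 and the inside median in CON was 0.51. With inside limited to the strand of the host, the outside median in FC was -0.21 and the outside median in CON was -0.065. Without loci that have a coding TSS, the inside median in CON was 0.36. Less the ratio of the input libraries, the FC to CON median was -0.16, the loci higher in FC numbered 168 and the loci lower in FC numbered 300. Less the ratio of the IgG libraries, the FC to CON median was 0.091, the loci higher in FC numbered 268 and the loci lower in FC numbered 178. With at least 50 H4K5ac reads together, the loci higher in FC numbered 35 and the loci lower in FC numbered 44. With miRNA symbols alone, chosen after seeing the data, the outside median in FC was -0.15, the loci higher than input in FC numbered 124, the outside median in CON was 0.25, the loci higher than input in CON numbered 168, the FC to CON median was 0.076, the loci higher in FC numbered 17 and the loci lower in FC numbered 19. With RefSeq matches alone, chosen after seeing the data, the inside median in FC was 0.37, the outside median in FC was -0.0071, the loci higher than input in FC numbered 145, the inside median in CON was 0.63, the outside median in CON was 0.30, the loci higher than input in CON numbered 201, the FC to CON median was 0.085, the loci higher in FC numbered 18 and the loci lower in FC numbered 11. Without the Dlk1-Dio3 and Sfmbt2 clusters, chosen after seeing the data, the inside median in FC was 0.33 and the inside median in CON was 0.53. At 2-fold, the loci higher than input in FC numbered 121, the loci higher than input in CON numbered 201, the loci higher in FC numbered 12 and the loci lower in FC numbered 26. Less the ratio of the input libraries, the sign of values with an interval that excluded 0 changed for AL928593.1 (FC to CON) -0.22, AL645963.1 (FC to CON) -0.33, Mir300 (FC to CON) -0.15, Mir1962 (FC to CON) -0.18, Mir338 (FC to CON) -0.26, Mir142 (FC to CON) -0.53, Mir126 (FC to CON) -0.18. Less the ratio of the IgG libraries, the sign of values with an interval that excluded 0 changed for AL928593.1 (FC to CON) -0.69, Mir1962 (FC to CON) -0.22. With IgG in place of input, the sign of values with an interval that excluded 0 changed for Mir666 (FC) 0.013, Mir666 (CON) 0.25, AL731851.1 (FC) 0.32, Mir598 (FC) 0.37, Mir140 (FC) 0.92, Mir133a-2 (FC) 0.15. With the GC correction, the sign of values with an interval that excluded 0 changed for AC107711.2 (CON) -0.16, Mir26b (CON) -0.066, Mir218-1 (CON) 0.21, Mir208b (CON) -0.044, Mir144 (CON) -0.13, Mir126 (CON) -0.23. With 5 kb either side, the sign of values with an interval that excluded 0 changed for Mir140 (FC) 0.16. With 1 kb either side, the sign of values with an interval that excluded 0 changed for Mir1962 (FC to CON) -0.080, Mir31 (FC) 0.038.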
